A study of Drosophila melanogaster with 12 samples.

Results

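Tetraspanins are small proteins that cross the membrane 4 times, with a short and a long loop on its outer side, and the fly genome carries a large family of them. The probe sets described here are all those of the table whose single annotated gene symbol begins with Tsp followed directly by a digit. There were 31 of them among 14010 probe sets, 1 for each of 31 genes, out of 34 genes of that naming in the RefSeq gene table. The 3 others, Tsp42Ea, Tsp42Eb and Tsp68C, were not analysed here. The rule uses names and no measured value.

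The cells were D. mel-2, a cultured line of Drosophila melanogaster of embryonic origin, and the samples differ by treatment and cell fraction. The control arm (NS) was treated with a non-specific RNA interference and the other arm with one that targets U2AF50, which with its small partner forms the splicing factor U2AF that recognises the end of introns. Total RNA of a cytoplasmic and a nuclear fraction was hybridised to 1-colour Affymetrix arrays of the fly genome, with 3 arrays in each of the 4 groups of treatment and fraction. The descriptions of 9 of the 12 samples mention a hypotonic lysis, while those of control cytoplasm replicates 1 and 2 and control nucleus replicate 1 give no lysis. The labels state no time of treatment and no purity of the fractions. They do not say whether replicates were separate cultures either, so the p-values rest on the spread of these arrays alone, and that spread may be technical.

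Tetraspanins are made on ribosomes at the endoplasmic reticulum, are inserted into its membrane as they are translated, and travel to the cell surface or to endosomes and lysosomes. There they gather other membrane proteins, among them integrins and the ADAM protease Kuzbanian, into shared membrane domains. Many of the fly genes lie in 1 cluster on chromosome arm 2R, the Tsp42E genes. A few have a known role. Tsp2A is a component of the smooth septate junctions of the gut. Tsp42Ej is the lysosomal protein Sunglasses, which takes part in the breakdown of rhodopsin in photoreceptors. Tsp3A, Tsp26A and Tsp86D are the fly members of the TspanC8 class, which carries the Kuzbanian protease to the cell surface and so bears on Notch signalling.

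Values are deposited array intensities on a linear scale, and a log2 change is a difference of quantile normalised log2(intensity + 94.7), a scale that understates the change of weak signals. Each change is relative to the whole signal of its fraction and does not give the share of an mRNA in the nucleus. The deposited array medians lay between 335 and 497, and arrays of 1 group correlated with r between 0.863 and 0.959 across probe sets. U2af50 mRNA, the target of the treatment, had a log2 change of -1.75 in the cytoplasm (SE 0.26, limma adjusted p = 0.0012) and of 0.21 in the nucleus (SE 0.26, adjusted p = 0.738). Of 10 genes that mark plasmatocytes, the phagocytic blood cells of the fly, 9 were above the filter on low values. Above it as well were 2 of 3 lamellocyte, 1 of 3 crystal cell, 2 of 3 muscle and 2 of 3 fat body markers. Germline markers were so in 2 of 4 and neuron markers in 0 of 4, with genes lacking a single-symbol probe set left out. The filter kept 8379 of 13966 probe sets, and each marker was read from its probe set with the highest mean. Hml, vkg and Sr-CI had mean log2 values of 7.62, 7.63 and 7.41 in the control cytoplasm, below the filter of 8.455. The summed intensity of the plasmatocyte markers was itself higher in the nuclear fraction, between 72143 and 79829 on the control arrays against 6492 to 7859 in the cytoplasm, and between 48857 and 56117 against 9227 to 10669 after depletion. Of the 9 tested markers 8 were called higher in the control nucleus and 0 lower, against 16.9% and 25.2% of all tested probe sets. In depleted cells 8 were higher and 1 lower, against 17.9% and 30.9%. The lower one was srp (log2 change -0.76, SE 0.26, limma adjusted p = 0.0245), which had 0.008 in control cells. The part of these markers in the results on tetraspanins was not tested.

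The first question was where tetraspanin mRNA lay in control cells. Of the 23 members above the filter on low values, a mean over the arrays above the 40th percentile of all probe sets, 12 were higher in the nuclear fraction than in the cytoplasm and 0 were lower (limma adjusted p under 0.05, fitted over 8379 probe sets), where 16.9% of all tested probe sets were higher and 25.2% lower. At an unadjusted p under 0.05 the count of lower members was 0 as well, against 29.9% of all tested probe sets. The largest excesses were those of Tsp42Ed at 16.2-fold, Tsp3A at 9.4-fold, Tsp42Ee at 7.6-fold, Tsp42Ef at 6.46-fold and Tsp86D at 5.47-fold. The median log2 change of the 23 tested members was 1.19, against -0.27 over all tested probe sets. With no filter, all 31 members entered the fit, and 10 were higher and 0 lower, where 10.4% of 13966 probe sets were higher and 14.3% lower, with a median of 0.69 against -0.13. The deposited intensities gave the same picture without a fit. In 13 of the 31 members all 3 nuclear arrays lay above all 3 cytoplasmic arrays, and in 0 members below, against 13.3% and 24.1% of all probe sets.

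**Figure D1:**
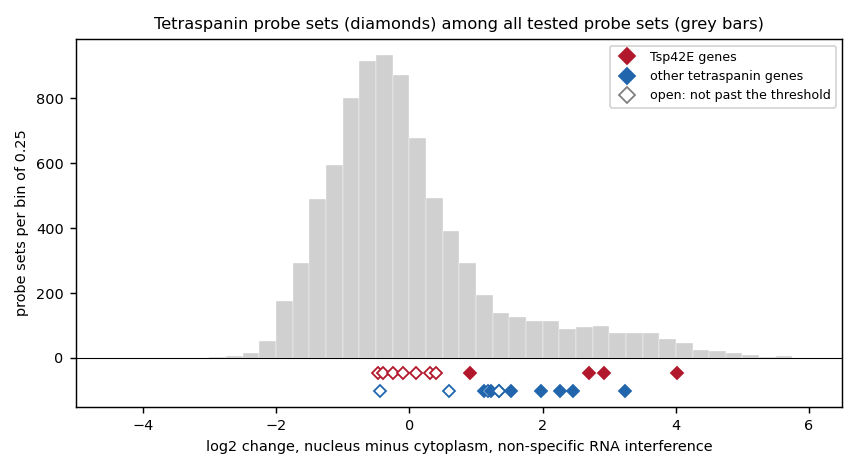
Number of tested probe sets (grey bars) by log2 change from cytoplasm to nucleus under non-specific RNA interference, in bins of 0.25, with the 23 tested tetraspanin probe sets as diamonds below the bars (red, Tsp42E genes; blue, the others; filled, adjusted p under 0.05). The 12 filled diamonds all lie right of 0, from 0.92 to 4.02, while the bulk of probe sets lies around the median of -0.27.

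The Tsp42E cluster held the probe set with the largest nuclear excess of the family and also 7 of the 11 tested members that did not pass. Of its 15 probe sets 11 were tested and 4 of these were higher in the control nucleus, with a median log2 change of 0.31. Of the 16 members outside the cluster 12 were tested and 8 were higher, with a median of 1.35. Over all tested probe sets 16.9% were higher and 25.2% lower, with a median of -0.27. Whether the cluster differs from the rest was not tested.

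Tsp42Ed had intensities of 1904, 2202 and 2458 in the control cytoplasm and of 32371, 39578 and 37760.4 in the control nucleus. The lowest nuclear array thus stood far above the highest cytoplasmic array (log2 change 4.02, SE 0.16, limma adjusted p = 2.14e-12). Tsp42Ee read 7772, 10376 and 11012 in the cytoplasm and 63338, 83198 and 70576 in the nucleus (log2 change 2.93, SE 0.14, adjusted p = 1.18e-11). Tsp42Ef read 590.3, 1062 and 1179 against 5984, 6199 and 6697 (log2 change 2.69, SE 0.23, adjusted p = 3.37e-08). These 3 genes follow one another among the tetraspanin genes along the arm, and for each of them the fractions did not overlap. The next gene on one side, Tsp42Ec, read 2107, 1697 and 667 in the control cytoplasm and 1198, 1627 and 904 in the control nucleus. Its fractions overlapped, and the interval of its log2 change, -0.8 to 0.61, holds 0 (95% interval). The next on the other side, Tsp42Eg, was below the filter. The 4th called gene of the cluster was Tsp42El, with 322, 315 and 247 against 678, 598 and 538 (log2 change 0.92, SE 0.35, adjusted p = 0.0408). All 3 nuclear arrays of Tsp42El were higher, but its call ended in 16 of 24 alternative settings, the leaving out of any 1 control array included.

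**Figure D2:**
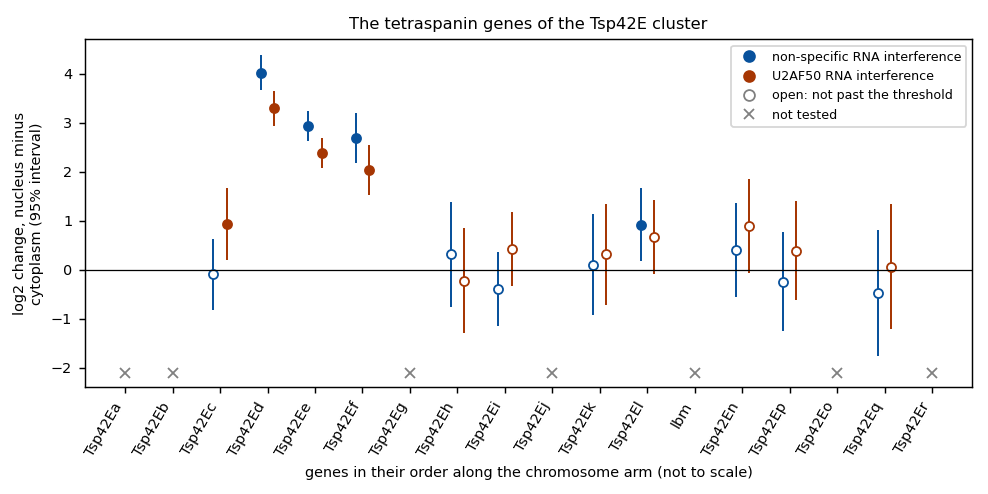
Log2 change from cytoplasm to nucleus (vertical axis, bars 95% intervals) of the Tsp42E genes and lbm, placed in the order in which the RefSeq table lists them along the arm, under non-specific (blue) and U2AF50 (red-brown) RNA interference, with filled points for adjusted p under 0.05 and crosses for genes not tested. Tsp42Ed, Tsp42Ee and Tsp42Ef stand together above 2, and in control cells the tested genes to their right lie between -0.48 and 0.92.

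The other tested genes of the cluster did not pass the test between the control fractions. Tsp42Eh, Tsp42Ei, Tsp42Ek, Tsp42En, Tsp42Ep and Tsp42Eq had log2 changes between -0.48 and 0.40. The narrowest of their intervals was that of Tsp42Ei, from -1.12 to 0.34, and the widest that of Tsp42Eq, from -1.74 to 0.79, so that moderate changes in either direction lie within them. Tsp42Ep overlaps Tsp42Eo in the RefSeq table, and Tsp42Ej overlaps Tsp42Ek, so the signals of these 4 genes may not be wholly separate.

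All 3 TspanC8 genes were higher in the control nucleus. Tsp3A read 255, 148 and 749.8 in the cytoplasm and 3512, 3820.1 and 3644 in the nucleus. Its nuclear arrays lay close together and its cytoplasmic arrays were widely spread, with replicate 3 highest (log2 change 3.23, SE 0.40, adjusted p = 3.09e-06 in limma). Tsp86D read 503, 845 and 768 against 4716, 3416 and 4360.0, with no overlap (log2 change 2.45, SE 0.23, adjusted p = 9.69e-08). Tsp26A read 419, 143 and 147 against 366, 697 and 777. Here cytoplasm replicate 1 lay above nucleus replicate 1, and the call was the weakest of the 12 (log2 change 1.23, SE 0.47, adjusted p = 0.0439). It ended in 13 of 24 alternative settings, among them the fit without control nucleus replicate 3 (adjusted p = 0.15).

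Of the remaining members, Tsp39D had intensities of 708, 303 and 584 in the control cytoplasm and 2802, 2629 and 2663 in the nucleus (log2 change 2.26, SE 0.29, adjusted p = 4.06e-06 in limma). Tsp97E, listed in the RefSeq table under the synonym Tspan31 as well, read 1126, 1679 and 971 against 5306, 5218 and 5039 (log2 change 1.98, SE 0.22, adjusted p = 8.71e-07). Tsp66E read 1082, 862 and 666 against 3114, 2140.0 and 2629 (log2 change 1.53, SE 0.23, adjusted p = 2.43e-05). In these 3 genes every nuclear array stood above every cytoplasmic one. Tsp96F read 2119, 2999 and 4278 against 10625, 7097 and 7290.5 (log2 change 1.34, SE 0.21, adjusted p = 3.43e-05). Its lowest cytoplasmic and highest nuclear array were both replicate 1.

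Tsp29Fa and Tsp29Fb are neighbours among the protein-coding genes of arm 2L, and 1 of them passed. Tsp29Fb read 932, 703 and 1024 in the control cytoplasm and 1700.3, 2130.2 and 1840.1 in the nucleus, without overlap (log2 change 1.13, SE 0.26, limma adjusted p = 0.0018). Tsp29Fa read 1190.2, 935 and 145 against 505, 214 and 580.3, with control cytoplasm replicate 3 far below the other 2 arrays (log2 change -0.45, SE 0.51, adjusted p = 0.522). Without that array Tsp29Fa was lower in the nucleus (log2 change -1.15, adjusted p = 0.0423), the only member called lower between the control fractions in any of the 25 alternative settings. The difference between the 2 genes was not tested.

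The other 3 tested members had positive changes that did not pass. Tsp2A read 557, 471 and 505 in the control cytoplasm and 563, 883 and 897 in the nucleus, so its fractions did not overlap, though by a narrow margin (log2 change 0.60, SE 0.33, limma adjusted p = 0.166). Tsp42A had a log2 change of 1.35 (SE 0.64, adjusted p = 0.105), with cytoplasmic intensities from 77.9 to 561, and Tsp47F one of 1.19 (SE 0.63, adjusted p = 0.144). The spread between arrays of these last 2 genes was wide, and their intervals reached from -0.008 to 2.71 and from -0.14 to 2.51.

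**Figure D3:**
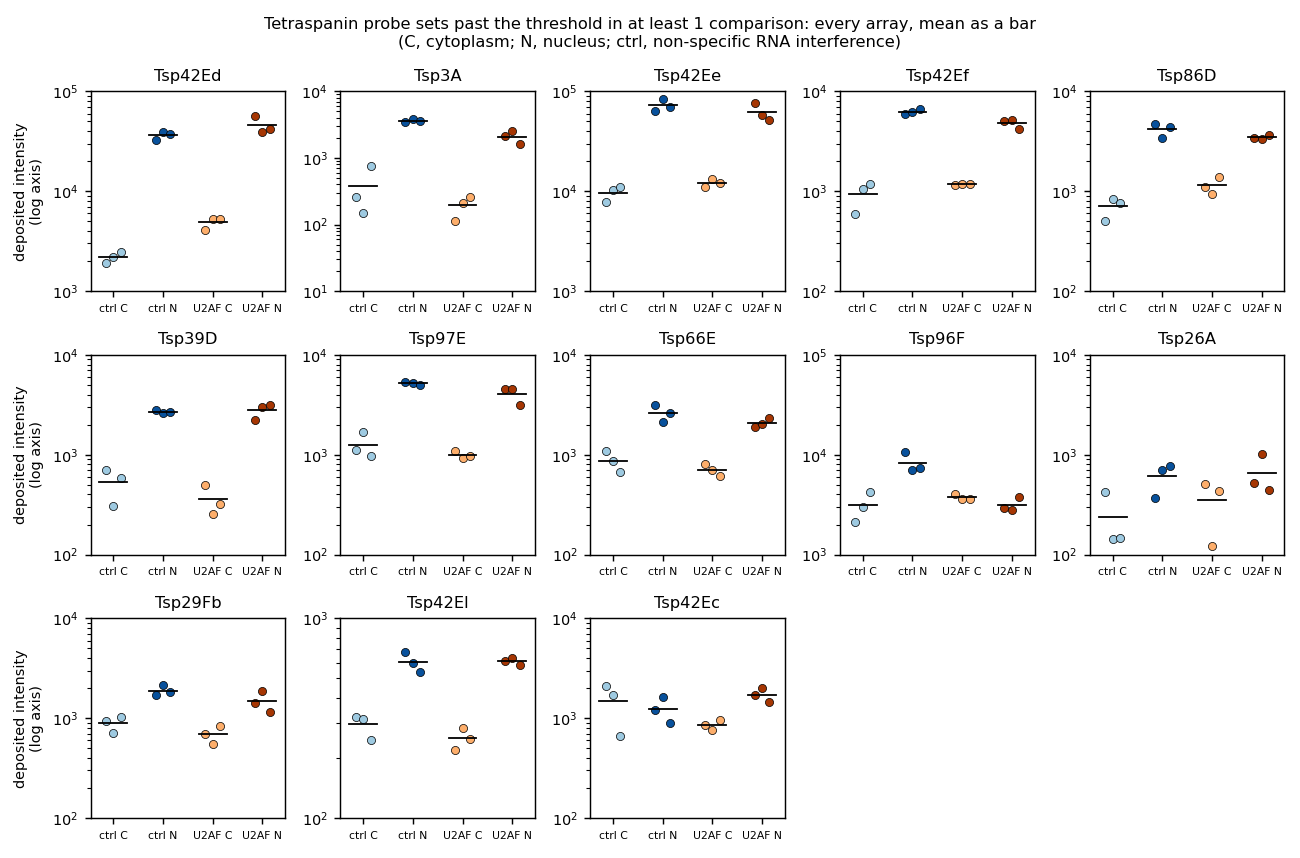
Deposited intensity on a log axis, with 1 point for each array and the group mean as a bar, for the 13 tetraspanin probe sets past the threshold in at least 1 comparison, in the order of their log2 change between the control fractions (C, cytoplasm; N, nucleus). Tsp42Ed runs from about 1904 to 56745, and Tsp96F is the panel in which the nuclear arrays after U2AF50 RNA interference fall to the level of the cytoplasm.

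The second comparison placed the same fractions side by side in U2AF50-depleted cells. Of the 23 tested members 10 were higher in the nucleus and 0 lower, where 17.9% of all tested probe sets were higher and 30.9% lower, and the median log2 change was 0.84 against -0.29. The count of lower members was again 0 at an unadjusted p under 0.05 in limma, against 34.7% of all tested probe sets. The GAPDH 3' to 5' ratio, a measure of RNA integrity, was 6.19 ± 2.07 (SD, n = 3) on the nuclear and 2.90 ± 0.657 on the cytoplasmic arrays compared here, against 6.24 ± 1.76 and 5.42 ± 2.17 in control cells. With no filter 11 of 31 were higher and 0 lower, against 11.2% and 17.9% of all probe sets. In 19 of the 31 members all depleted nuclear arrays lay above all depleted cytoplasmic arrays and in 0 below, against 28.4% and 21.8% of all probe sets. Of these, 5 weak members (Tsp33B, Tsp42Ej, Tsp66A, Tsp74F and Tsp5D) overlapped after normalisation. Among the tested members 9 were called higher under both treatments, namely Tsp42Ed, Tsp3A, Tsp42Ee, Tsp42Ef, Tsp86D, Tsp39D, Tsp97E, Tsp66E and Tsp29Fb. The share of all tested probe sets called higher under both was not counted, so this overlap is a description. The 2 treatments share no arrays in these comparisons, but they do share the fit's estimate of spread.

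Tsp42Ed was again the highest, with depleted intensities of 4114, 5321 and 5232 in the cytoplasm and 56745, 39553 and 41934 in the nucleus (log2 change 3.29, SE 0.16, limma adjusted p = 2.76e-11). Tsp3A followed with 115, 209 and 263 against 2146, 2514 and 1605 (log2 change 2.75, SE 0.40, adjusted p = 2.14e-05). Tsp39D read 501, 252 and 323 against 2220.4, 3012 and 3156 (log2 change 2.57, SE 0.29, adjusted p = 9.90e-07). For each of these 3 genes the fractions did not overlap in depleted cells either. Tsp42Ee had a log2 change of 2.37, Tsp42Ef of 2.04, Tsp97E of 2.01, Tsp86D of 1.64, Tsp66E of 1.40 and Tsp29Fb of 0.95, with adjusted p between 2.49e-10 and 0.0057 in limma.

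Tsp42Ec passed in depleted cells, with 862, 768 and 951 in the cytoplasm and 1721, 2018 and 1442 in the nucleus (log2 change 0.93, SE 0.33, limma adjusted p = 0.0289). The fractions of this gene did not overlap, in contrast to the control arrays, but its change of the ratio with depletion did not pass (interaction 1.03, SE 0.47, adjusted p = 0.366). Its call ended in 8 of 25 alternative settings, and the log2 change was 0.012 with the hybridisation controls of each array as a covariate. The mean log2 signal of those added controls after depletion was 14.22 ± 0.88 (SD, n = 3) for the nuclear arrays and 12.39 ± 0.21 for the cytoplasmic ones, and its part in the result was not tested beyond that fit. Tsp26A (0.50, SE 0.47), Tsp42El (0.67, SE 0.35) and Tsp96F (-0.11, SE 0.21), called in control cells, did not pass in depleted cells, with adjusted p of 0.398, 0.118 and 0.69 in limma.

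**Figure D4:**
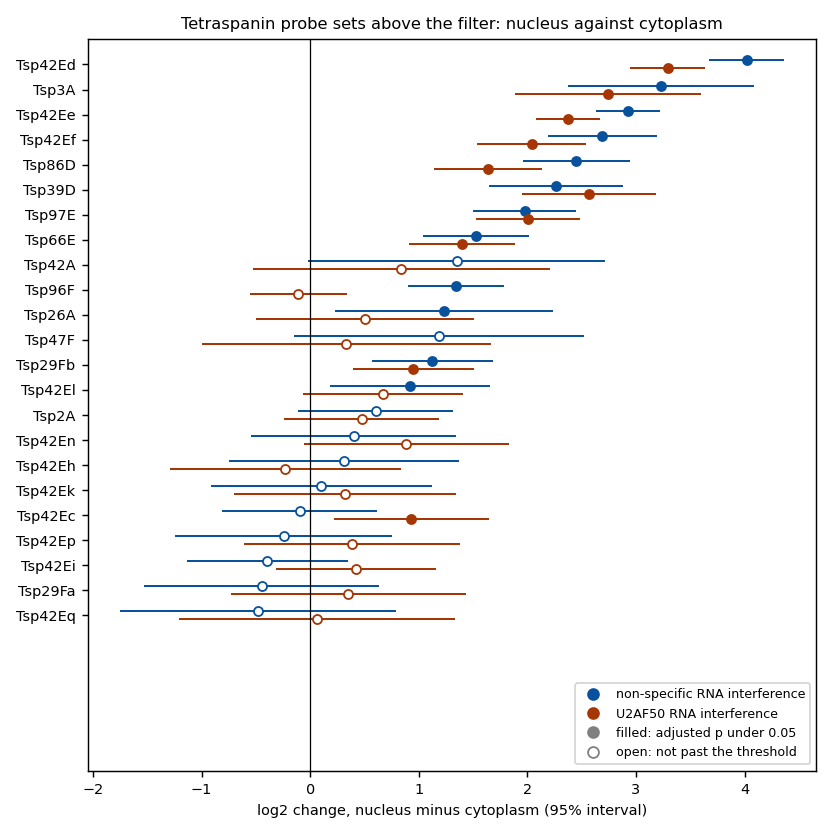
Log2 change from cytoplasm to nucleus of the 23 tested tetraspanin probe sets under non-specific (blue) and U2AF50 (red-brown) RNA interference, with 95% intervals and filled points for adjusted p under 0.05. Points of the 9 genes called under both treatments lie to the right of 0, and for Tsp96F the 2 intervals, 0.91 to 1.77 and -0.54 to 0.33, do not meet.

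In the cytoplasm, depletion of U2AF50 was followed by a change of 1 tetraspanin. Tsp42Ed rose 2.08-fold, from 1904, 2202 and 2458 in control cells to 4114, 5321 and 5232 in depleted cells (log2 change 1.06, SE 0.16, limma adjusted p = 0.0014), and the lowest depleted array stood above the highest control array. This was 1 of 23 tested members, where 2.57% of all tested probe sets were called in either direction, and 1 of 31 with no filter, where 0.644% of 13966 were called higher. In the deposited intensities, 2 of the 31 members lay wholly above the control arrays and 5 wholly below, against 9.39% and 17.4% of all probe sets. Those below were Tsp42Ei, Tsp42Ep and the weak Tsp42Eg, Tsp42Ej and Tsp5D, and all of them but Tsp42Ei overlapped after normalisation. Those above were Tsp42Ed and Tsp86D, which stayed above after normalisation. The call ended without an intensity trend in the variance model (adjusted p = 0.0639), with the GAPDH ratio as a covariate (log2 change 0.99, adjusted p = 0.051) and among arrays labelled with hypotonic lysis only (0.93, adjusted p = 0.138), a setting that leaves 1 control cytoplasm array. The GAPDH ratio was lower on the depleted cytoplasm arrays, as given above, and its part in the result was not tested beyond that fit. The summed plasmatocyte markers were also higher on these arrays, 9227 to 10669 against 6492 to 7859, but 0 of the 9 tested ones passed. In that list Pvr, srp and crq lay above all control arrays (0.50, 0.62 and 0.95). Col4a1 (-0.44) and the weak NimC1 lay below them, and the rest overlapped. The germline marker osk rose (log2 change 1.71, SE 0.28, limma adjusted p = 0.0035), while zpg, the other tested germline marker, did not pass (-0.17). The part of these markers was not tested. In bulk RNA of this kind, a shift in the cells sampled and a shift in the RNA of each cell cannot be told apart.

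Other members showed smaller differences in the cytoplasm. Tsp86D read 503, 845 and 768 in control cells and 1094, 946 and 1397 after depletion, also without overlap, but it did not pass (log2 change 0.69, SE 0.23, limma adjusted p = 0.138). Of the tetraspanin genes next to Tsp42Ed, Tsp42Ee had a log2 change of 0.28 (interval -0.0055 to 0.57) and Tsp42Ec one of -0.60. Tsp42Ef, which follows Tsp42Ee, had a log2 change of 0.40 (interval -0.092 to 0.89). Tsp42Ep had the lowest value of the tested members at -0.82 (SE 0.47, adjusted p = 0.413), followed by Tsp42Ec at -0.60 (SE 0.33, adjusted p = 0.402). Without control cytoplasm replicate 3, whose Tsp42Ec intensity of 667 was far below the other controls, Tsp42Ec fell by 1.05 on the log2 scale (adjusted p = 0.044), so that 2 members were called. The median log2 change of the 23 tested members was -0.01, against 0.04 over all tested probe sets.

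In the nucleus, the member that changed was Tsp96F. Its intensities were 10625, 7097 and 7290.5 in control nuclei and 2945, 2766 and 3797 in depleted nuclei, a 2.34-fold fall (log2 change -1.23, SE 0.21, limma adjusted p = 0.0023). All 3 depleted arrays lay below all 3 controls, and the call held in each of the 25 alternative settings, with log2 changes between -1.52 and -1.08. It was 1 of 23 tested members called in the nucleus, where 3.4% of all tested probe sets were called, and 1 of 31 with no filter, where 0.723% were called lower. In the deposited intensities 1 member lay wholly above the control nuclei and 4 wholly below, against 10.6% and 7% of all probe sets. The former was Tsp29Fa, and the latter were Tsp96F, Tsp3A, Tsp42Ef and Tsp97E. After normalisation Tsp29Fa, Tsp42Ef and Tsp97E overlapped with their controls. Among the marker genes on the same arrays, the summed plasmatocyte markers were 48857 to 56117 after depletion against 72143 to 79829 in control nuclei. Col4a1 of that list fell (log2 change -0.90, SE 0.19, limma adjusted p = 0.0164), while Hml, Pxn and vkg lay below all control nuclei without passing (-0.81, -0.53 and -0.93). The other tested plasmatocyte markers overlapped with their controls. Of these, Sr-CI (-0.40), Pvr (-0.18) and srp (-0.14) had negative changes, and eater (0.21) and crq (0.14) positive ones. The germline marker osk rose (2.12, SE 0.28, limma adjusted p = 4.08e-04), while zpg, the other tested germline marker, did not pass (-0.67). Their part in the fall of Tsp96F was not tested. In the cytoplasm Tsp96F read 2119, 2999 and 4278 in control cells and 4040.2, 3592 and 3640.0 in depleted cells, with overlap (log2 change 0.22, SE 0.21, adjusted p = 0.65).

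The nuclear excess of Tsp96F was thus 2.53-fold in control cells, with a log2 change of 1.34, and its log2 change in depleted cells was -0.11 (interval -0.54 to 0.33). The difference itself, tested as the interaction of treatment and fraction, was -1.45 on the log2 scale (SE 0.29, interval -2.06 to -0.84) and just missed the threshold (adjusted p = 0.0527 in limma). Among 24 alternative settings it passed in 7, and the estimate was negative in each of the 24, between -2.06 and -0.87. With the GAPDH ratio as a covariate it was -1.19 (adjusted p = 0.277) and with the hybridisation controls -0.93 (adjusted p = 0.234). The value of -0.87 came from the arrays labelled with hypotonic lysis only, a setting that leaves 1 control cytoplasm array. The arrays without that label were all from control cells. Across all tested probe sets 0.167% passed in the interaction, and 0 of the 23 members did, while 5 of the 23 had an unadjusted p under 0.05 in limma, as did 13% of all tested probe sets.

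Those 5 members were Tsp96F, Tsp42Ed, Tsp42Ee, Tsp86D and Tsp42Ec. The interaction of Tsp42Ed was -0.73 (SE 0.23, limma adjusted p = 0.198), that of Tsp42Ee -0.55 (SE 0.19, adjusted p = 0.256) and that of Tsp86D -0.81 (SE 0.33, adjusted p = 0.305), so that each estimate pointed to a smaller nuclear excess without passing the test. Tsp42Ec had the opposite sign (1.03). Of the 12 members called higher in the control nucleus, 10 had an interaction below 0, and the exceptions were Tsp39D (0.30) and Tsp97E (0.033). These 12 were chosen by the control arrays, which also enter the interaction, so the count is a description. The median interaction of the 23 tested members was -0.18, against -0.11 over all tested probe sets.

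The remaining tested members did not pass in either fraction. In the nucleus Tsp3A had intensities of 3512, 3820.1 and 3644 in control cells and 2146, 2514 and 1605 after depletion. The 2 groups did not overlap, yet the change missed the threshold (log2 change -0.72, SE 0.40, limma adjusted p = 0.394) in a fit whose standard error is taken over all 4 groups, of which the cytoplasmic arrays of this gene were the most widely spread. Tsp97E (-0.20, interval -0.67 to 0.26), Tsp66E (-0.29, interval -0.77 to 0.19), Tsp29Fb (-0.37, interval -0.91 to 0.18) and Tsp39D (0.10, interval -0.51 to 0.70) had intervals in the nucleus that hold 0 and leave out a 2-fold change. Those of the weaker signals were wider, such as that of Tsp47F from -1.77 to 0.88 and that of Tsp42Eq from -0.94 to 1.58. The median nuclear change of the tested members was -0.13, against -0.05 over all tested probe sets.

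**Figure D5:**
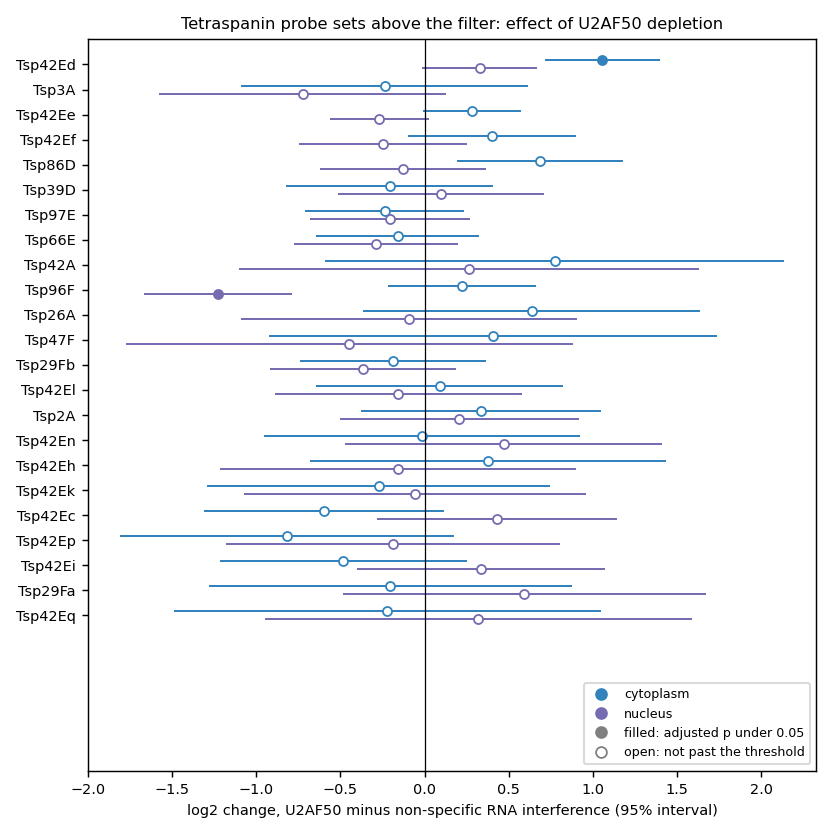
Log2 change after U2AF50 RNA interference of the 23 tested tetraspanin probe sets in the cytoplasm (blue) and in the nucleus (violet), with 95% intervals and filled points for adjusted p under 0.05. The 2 filled points are Tsp42Ed in the cytoplasm at 1.06 and Tsp96F in the nucleus at -1.23.

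The 8 members below the filter were Tsp66A, Tsp42Eg, Tsp74F, Tsp33B, Tsp5D, Tsp42Eo, Tsp42Er and Tsp42Ej, from the lowest mean log2 value to the highest. Their single intensities ran from 13.8, that of Tsp66A in depleted cytoplasm replicate 3, to 873, that of Tsp42Ej in control cytoplasm replicate 1. Tsp42Ej, the rhodopsin-degrading lysosomal protein, lay just under the filter (mean log2 value 8.454 against 8.455), and Tsp42Eh just above it (8.507). For this group single arrays stood out from their replicates. Tsp74F read 592 in depleted nucleus replicate 2 and 72.1 and 128 in the other 2 arrays of the group, and Tsp33B read 779.8 in control cytoplasm replicate 1 and 54.8 and 49.8 in the others. Over the 8 members the median intensity was 477.6 in depleted nucleus replicate 2, the highest of the 12 arrays. The lowest were 49.35 and 51.15, in depleted cytoplasm replicates 1 and 2.

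With no filter, 1 of these 8 weak members passed in 1 comparison. Tsp66A read 36.7, 28.9 and 13.8 in the depleted cytoplasm and 345, 414 and 45.0 in the depleted nucleus, without overlap in these intensities (log2 change 1.03, limma adjusted p = 0.041 over 13966 probe sets). After normalisation, the scale of the fit, nucleus replicate 3 (7.06) lay below cytoplasm replicates 1 and 2 (7.21 and 7.16), so the call rests on the other 2 nuclear arrays. Tsp42Eg read 19.0, 26.6 and 32.8 against 217, 211 and 106, also without overlap, and did not pass (log2 change 0.80, adjusted p = 0.119). All of these cytoplasmic readings lie below the pseudocount, so the log2 scale compresses the differences. For Tsp42Ej the log2 change between the depleted fractions was 1.06 (adjusted p = 0.265), with nuclear intensities of 618, 712 and 123. Tsp42Er had the lowest nuclear change with depletion, -1.25 (adjusted p = 0.343), from 401, 442 and 505 to 43.6, 112 and 465.

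Genes of proteins that work with tetraspanins were read from lists of partners, and their values are a description. Of the Kuzbanian and Notch list, 3 of 10 genes had a probe set annotated with their symbol alone, and 2 were tested. Both were higher in the nucleus under either treatment, as were 16.9% of all tested probe sets in control cells and 17.9% in depleted cells. One is kuz, the ADAM10 protease that TspanC8 tetraspanins regulate, with intensities of 703, 426 and 435 in the control cytoplasm and 5983, 3918 and 5034 in the control nucleus (log2 change 3.03, SE 0.22, limma adjusted p = 4.21e-09). In depleted cells its log2 change was 2.70. The other is Psn, the presenilin of the gamma-secretase that cuts Notch after Kuzbanian, with 3.03 in control cells (SE 0.18, adjusted p = 2.02e-10) and 2.56 in depleted cells. The mRNAs of the protease and of all 3 TspanC8 proteins were thus called in the same direction in control cells. The call of Tsp26A ended in 13 of 24 alternative settings, and this gene did not pass in depleted cells.

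Among 7 integrin subunits 3 were tested, and 2 were higher in the nucleus under either treatment and 0 lower. The beta subunit mys read 1786, 1641 and 1683 in the control cytoplasm and 19983, 15116 and 19086 in the nucleus (log2 change 3.14, SE 0.17, limma adjusted p = 9.06e-11), and the alpha subunit mew had a log2 change of 1.68 (SE 0.29, adjusted p = 1.38e-04). The third, ItgaPS4, had -0.86 (adjusted p = 0.172). Of 11 tested septate junction genes 5 were higher in the control nucleus and 4 in the depleted nucleus, with 0 lower. The adhesion protein gene Nrx-IV had a log2 change of 3.66 and the claudin gene kune one of 2.40 in control cells. Of 4 tested innexins, which form gap junctions, 2 were higher in the control nucleus, Inx2 (2.69) and Inx3 (1.84). In depleted cells 1 was, Inx2, and 0 were lower under either treatment. Over all tested probe sets the calls were 16.9% higher and 25.2% lower between the control fractions. Between the depleted fractions they were 17.9% and 30.9%. The median log2 change in control cells was 1.09 for the septate junction genes and 1.52 for the innexins, against 1.19 for the tetraspanins and -0.27 for all tested probe sets. Between the treatments 0 of the tested genes of these lists passed in either fraction in limma. At an unadjusted p under 0.05, 1 gene of the Kuzbanian and Notch list, 3 septate junction genes and 1 innexin were higher in the depleted cytoplasm, against 9.57% of all tested probe sets. In the nucleus 1 septate junction gene and 1 innexin were higher by that measure, against 6.78%, and 1 integrin subunit and 1 septate junction gene lower, against 9.64%.

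The list of tetraspanin relatives outside the naming rule held 2 genes, and 1 was tested. The gene lbm (late bloomer), which lies inside the cluster and acts in the formation of motor neuron synapses, was below the filter. TM4SF was tested, and its log2 change of 0.10 between the control fractions (SE 0.48) and of 0.65 between the depleted ones did not pass in limma (adjusted p of 0.89 and 0.28). In the nucleus TM4SF read 204.4, 771.6 and 350.1 in control cells and 603.8, 806.3 and 1792 after depletion, with overlap, and this change did not pass either (adjusted p = 0.311).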

How the data were processed

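RNA of 12 samples, 3 in each of 4 groups by treatment and fraction, was measured on 1-colour Affymetrix arrays. The authors deposited 1 linear intensity per probe set and array, while its image software and summarisation were not given in the sources used here. From the values, each array's mean without its outer 2% of probe sets is 1000.

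Groups were taken from the sample titles. Of 14010 probe sets 44 Affymetrix controls were left out. Values were taken as log2(intensity + 94.7), the pseudocount being the 20th percentile of all values, and quantile normalised over the 12 arrays. The 8379 probe sets with a mean above the 40th percentile were fitted in limma 3.58.1 (R 4.3.3) with 1 coefficient per group and an intensity trend in the variance model. The 5 contrasts were each adjusted by Benjamini-Hochberg over all tested probe sets, with a threshold of 0.05. The script was tested on simulated data. Intervals cover 95%, and precision is limited by the number of arrays.

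Gene names came from GEO's platform annotation, checked against the RefSeq table, in which all 31 symbols are current. Named were all members, and the genes of fixed lists of partners. Although the rule uses names only, the members and lists were chosen with earlier results of these data known. Replicate numbers were not used to pair the samples, and the titles state no pairing. Same-numbered arrays correlated between -0.07 and 0.03 after removal of group means, which cannot settle whether they were paired. The 25 alternatives changed the scaling, pseudocount, filter, variance model, samples and covariates, or left out 1 array each in turn. No sequence was used.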

Additional observations from a re-analysis of the deposited data

Results flagged for a closer look

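The single result that stood out under the rules applied was that of U2af50 mRNA, the target of the treatment. Its response to RNA interference differed between the fractions, with a log2 change of -1.75 in the cytoplasm (SE 0.26, limma adjusted p = 0.0012) and of 0.21 in the nucleus (SE 0.26, adjusted p = 0.738). The test of that difference, the interaction of treatment and fraction, gave 1.96 on the log2 scale (SE 0.37, limma adjusted p = 0.0375), and it passed the threshold in 9 of 24 alternative settings, with values between 1.58 and 2.27. For Tsp96F, the tetraspanin with the lowest adjusted p in the same test, the interaction was -1.45 (adjusted p = 0.0527).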

How the results depend on the processing

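No alternative reversed a called value. Of 598 alternative values of the 24 called results on members, 556 kept their call and 42 lost it, and 23 of 2209 values of uncalled results passed. Tsp3A, Tsp39D, Tsp42Ed, Tsp42Ee, Tsp42Ef, Tsp66E, Tsp86D and Tsp97E were called higher in the nucleus under both treatments in each of the 25 alternatives. Over all alternatives 9 to 13 members were called higher in control nuclei and 9 to 12 in depleted nuclei. With the values as deposited, the cytoplasmic median with depletion was -0.25 and 1 member passed in the interaction. With arrays centred on their medians, the median between depleted fractions was 0.63, the median interaction was -0.45, and 2 members passed in the interaction, Tsp96F (-2.06, adjusted p = 0.0156) and Tsp42Ed (-1.20, adjusted p = 0.0317). That centring moved the median of all tested probe sets to -0.52 between the depleted fractions, 0.21 in the cytoplasm, -0.15 in the nucleus and -0.38 in the interaction. It also changed the calls over all probe sets to 317 higher and 44 lower in the cytoplasm (148 and 67 otherwise), 69 and 240 in the nucleus (132 and 153) and 10 and 173 in the interaction (6 and 8). The members' median less that of all probe sets stayed between 1.44 and 1.54 in control cells and between 1.13 and 1.15 in depleted cells under the 4 scalings. Quantiles within each fraction gave 1 interaction call, and 7 higher and 20 lower over all probe sets, and the deposited values 10 and 25. A pseudocount of 256.6 gave a control median of 0.86 and 1 interaction call. No filter gave a control median of 0.69, and a filter at the 60th percentile medians of 1.75 and 1.52 for the control and depleted fractions and 1 interaction call. The cytoplasmic call of Tsp42Ed was lost, leaving 0 members, without the intensity trend, with the GAPDH covariate and with hypotonic arrays only, where the control median was 0.84. The causes of these changes were not tested.

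Leaving out 1 array at a time gave 10 to 13 members higher and 0 to 1 lower in control nuclei (median 0.88 to 1.19), 9 to 12 higher in depleted nuclei (median 0.68 to 1.0), 1 to 2 calls in the cytoplasm (median -0.06 to 0.14), 1 to 1 in the nucleus (median -0.24 to 0.056) and 0 to 1 in the interaction (median -0.35 to -0.10). The interaction call was that of Tsp96F, without control cytoplasm replicate 3 (-1.66) or depleted nucleus replicate 3 (-1.57). With the replicate number as a block, 11 members were higher in control nuclei and 10 in depleted nuclei, with 1 call in the cytoplasm, 1 in the nucleus and 0 in the interaction. Tsp26A (adjusted p = 0.0582) and Tsp42El (adjusted p = 0.0614) lost their call and Tsp42A passed (1.35, adjusted p = 0.0455), and in 4 of 12 same-numbered pairs of arrays (4 pairs of groups, 3 numbers) the shared number gave the highest correlation. The arrays with 3 a group leave weak signals with intervals wider than a 2-fold change.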
